A study of Homo sapiens with 121 samples.

Results

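The 81 long cells of this series are single human embryonic stem cells of the line WA26 that fell in the highest of the study's telomere length classes, and their libraries differed widely in how many genes they held. A library was called gene-rich when more than 8000 genes stood above TPM 1 (TPM, transcripts in a library scaled to a fixed total), and gene-poor when 8000 genes or fewer did. The members were thus chosen by a measured value, the number of detected genes. By this rule 51 of the 81 cells were gene-rich and 30 were gene-poor, out of 121 cells in the series. The study asked how telomere length relates to the transcriptome of one and the same cell. Each cell was split into polyadenylated RNA, amplified by a Smart-seq2 protocol and sequenced, and genomic DNA, in which a telomere to Alu repeat signal was read by quantitative PCR. Both groups were untreated cells grown without feeders in E8 medium on Matrigel, and both had the same telomere label, so neither treatment nor telomere class separates them. All cells came from 1 line with no separate culture, passage or batch named. Each group was therefore taken as 1 sample, and no test was made.

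Primed human embryonic stem cells depend on a network around POU5F1, SOX2 and NANOG, divide quickly with a short first gap phase, and carry very large amounts of messenger RNA for ribosomal proteins. In plate-based single-cell libraries a gene can be missing because the cell lacked its transcript or because the transcript was not captured or sequenced. The 2 cannot be told apart in these values, and neither can a smaller amount of RNA per cell and a poorer capture of it. The rule cut on the number of detected genes, so that genes should be absent from gene-poor cells by the choice of cells itself. What the rule did not fix is which genes were lost, which were held, and whether the gene-poor cells resembled each other.

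Detected genes numbered 8064 to 11515 with a median of 9643 in gene-rich cells, and from 4002 to 7686 with a median of 5889 in gene-poor cells. Nearest to the border lay gene-poor cells with 7128, 7316 and 7686 genes and gene-rich cells with 8064, 8286 and 8857 genes. Summed TPM per cell lay between 984910 and 995466. Read totals per cell cannot be read from TPM values and were not used here. A coarse substitute is the number of genes with a value above 0 and up to TPM 1, because in a library of few reads a single read is already worth more than that.

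By this count the gene-poor cells were of 2 kinds, a division made after the values were seen. In 7 of them (Long_24, Long_31, Long_36, Long_46, Long_58, Long_64 and Long_81) only 0 to 8 genes had a value between TPM 0 and 1, and the 5th percentile of their values above 0 was TPM 4.39 to 14.5. In the other 23 there were 143 to 2707 such genes with a median of 2200, against 37 to 4330 with a median of 1478 in gene-rich cells. The median of the 23 thus lay above that of gene-rich cells, within their range, and the 7 held almost none. Detected genes numbered 4142 to 7686 in the 7 and 4002 to 7128 in the 23. These ranges overlap, as 5 of the 7 lay within that of the 23 and 20 of the 23 within that of the 7.

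The 2 kinds differed in their most abundant transcripts. Cytosolic ribosomal protein genes together made up TPM 148379 to 307874 (median 272965) in gene-rich cells, TPM 235357 to 283850 (median 266942) in the 7, and TPM 97398 to 211419 (median 142859) in the 23. The 7 lay inside the range of gene-rich cells, while the 23 and the 7 did not overlap. A pair at like gene number shows this: Long_31 had 6339 detected genes and a ribosomal protein sum of TPM 276447, and Long_13 had 6329 and TPM 169543. Long_46, with 4142 genes, held TPM 259958, and Long_69, with 4217 genes, held TPM 142859.

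**Figure D1:**
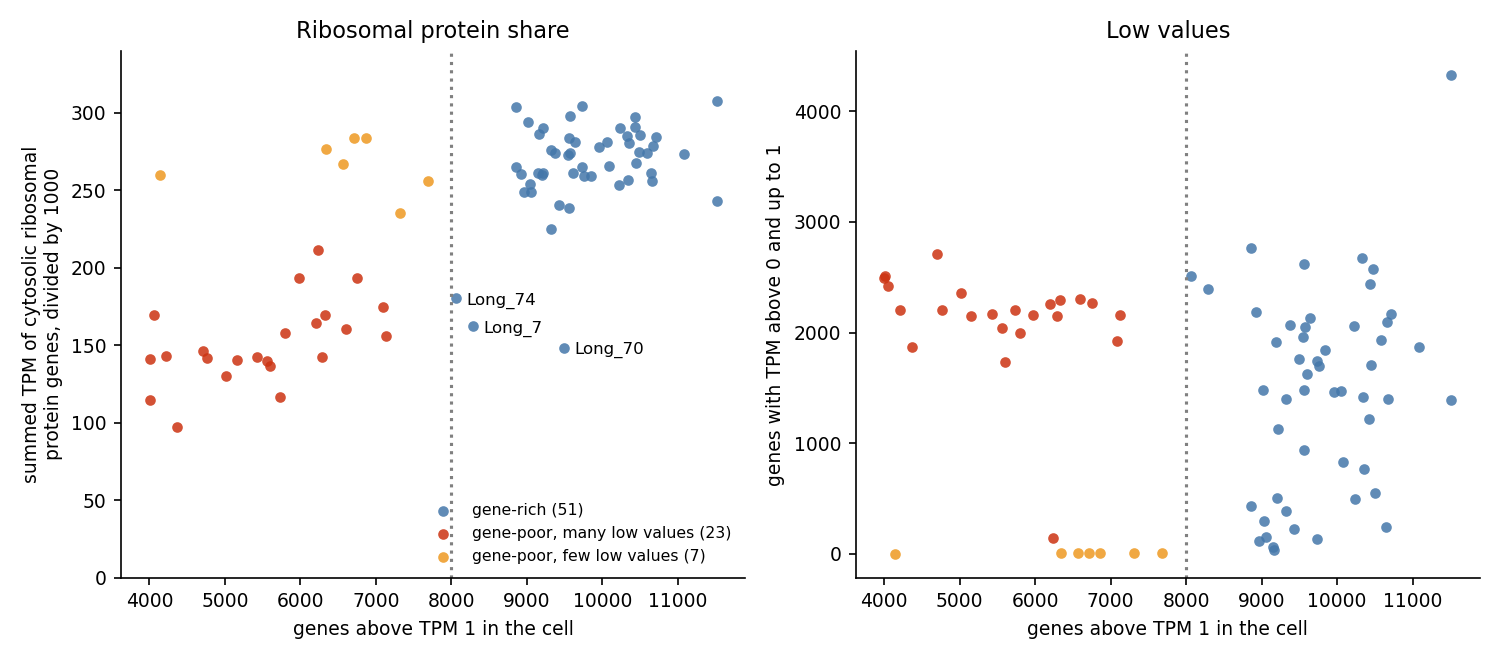
Genes above TPM 1 in each of the 81 long cells (x axis) against the summed TPM of cytosolic ribosomal protein genes, divided by 1000 (left) and the number of genes with TPM above 0 and up to 1 (right); each point is a cell and the dotted line is the border of 8000 genes. The 7 gene-poor cells with few low values lie at TPM 235357 to 283850 with most gene-rich cells, and the 23 others at TPM 97398 to 211419 with Long_7, Long_70 and Long_74.

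RPS12 and MDK drew the same line, but not every gene did. MDK was picked for standing high in gene-poor over gene-rich cells, and most gene-poor cells are the 23. Its separation of the 23 is therefore in part built in. RPS12 was picked for its abundance, and fell furthest in the 23 among the most abundant genes. MALAT1 was within the range of the 23 in 16 gene-rich cells and 2 of the 7. PRDX2, at TPM 428 to 3465 in the 23, overlapped the 7, at TPM 220 to 694. RPS12, a protein of the small ribosomal subunit, stood at TPM 1216 to 12537 (median 8208) in gene-rich cells. It stood at TPM 4409 to 9098 (median 7865) in the 7 and at TPM 129 to 2301 (median 1148) in the 23. No cell of the 7 came down to the range of the 23. MDK, the secreted growth factor midkine, was at TPM 268 to 3757 (median 513) in gene-rich cells, TPM 241 to 803 (median 400) in the 7 and TPM 1546 to 6999 (median 3113) in the 23. Every cell of the 23 lay above every cell of the 7 in MDK.

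The same ranges set apart 3 gene-rich cells. RPS12 was within the range of the 23 in 3 of 51 gene-rich cells, Long_7, Long_70 and Long_74, and these were also the 3 gene-rich cells whose MDK was within it. Long_7 had RPS12 at TPM 1216 and MDK at TPM 3757, Long_70 at TPM 1240 and 1736, and Long_74 at TPM 1367 and 2366. Their ribosomal protein sums, TPM 162255, 148379 and 180299, were the lowest among gene-rich cells. Long_74 and Long_7 were the cells nearest to the border on the gene-rich side, whereas Long_70 had 9492 detected genes. The 5 gene-rich cells with fewer than 200 low values (37 to 156) held 8961 to 9735 detected genes and ribosomal protein sums of TPM 248656 to 286074.

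Over the 6190 genes whose mean over the 81 cells reached TPM 10, the median Pearson correlation of log2(TPM + 1) between 2 gene-rich cells was 0.74. It was 0.65 between a cell of the 7 and a gene-rich cell, 0.57 between a cell of the 23 and a gene-rich cell, and 0.52 between 2 cells of the 23. Cells of the 23 were thus no more alike among themselves than they were like gene-rich cells. Zeros enter these values, and their number differs between the sets.

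Differences between sets are given below as the mean of log2(TPM + 1) in gene-poor cells minus that in gene-rich cells. A gene is called lower at a difference of -1 or below, higher at 1 or above, and holding when the difference is within 0.5. Over the 6190 genes, 3730 (60.3%) were lower in the 30 gene-poor cells, 1110 (17.9%) held and 42 (0.679%) were higher, with a median difference of -1.22. For the 23 cells against the same gene-rich cells 3956 genes (63.9%) were lower, 989 (16.0%) held and 140 (2.26%) were higher, with a median of -1.41. For the 7 cells 1847 (29.8%) were lower, 2851 (46.1%) held and 79 (1.28%) were higher, with a median of -0.44. Since both sets were compared with the same gene-rich cells, their values are set side by side and not correlated. Genes that could be scored as lower had to pass the mean of TPM 10, which gene-rich cells alone could bring about. Genes scored as higher could likewise pass it through gene-poor cells.

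**Figure D2:**
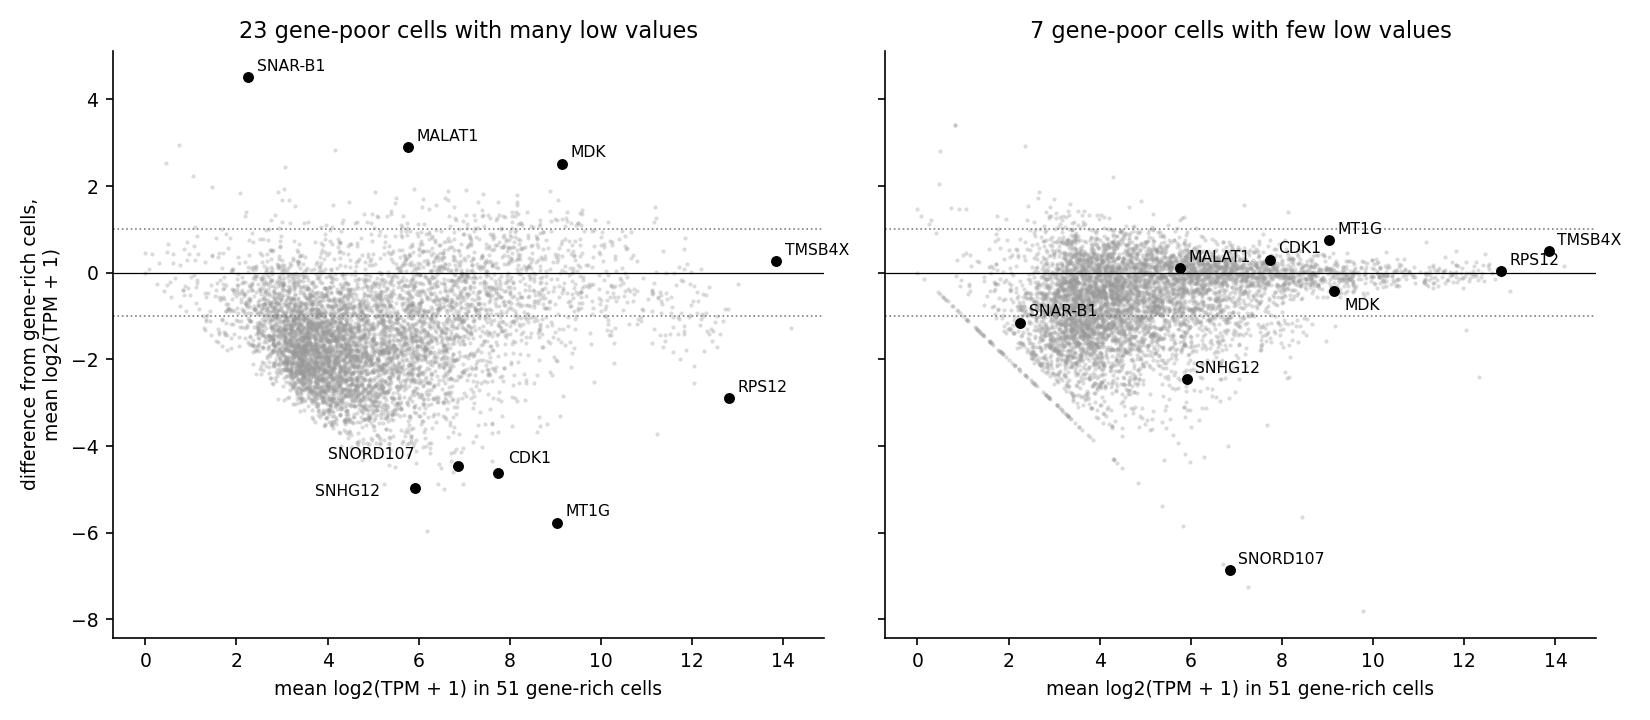
Difference in mean log2(TPM + 1) from the 51 gene-rich cells (y axis) against the mean log2(TPM + 1) in gene-rich cells (x axis), for the 23 gene-poor cells with many low values (left) and the 7 with few (right); each point is a gene averaging TPM 10 or more, Y-linked genes and XIST left out, and dotted lines mark -1 and 1. RPS12, MT1G and CDK1 lie at -2.90, -5.77 and -4.63 on the left and at 0.03, 0.74 and 0.30 on the right, and MDK and MALAT1 at 2.52 and 2.90 on the left and at -0.43 and 0.11 on the right.

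Detection fell off with level in all sets, from different levels on. The 6190 genes were ranked by mean level in gene-rich cells into 20 bins of about equal size. In the lowest bin a gene was above TPM 1 in a median of 60.8% of gene-rich cells, 26.1% of the 23 and 28.6% of the 7. In the 11th bin, at a log2 level of 4.60 to 4.85, the values were 100%, 56.5% and 85.7%. From a log2 level of 7.81 upward the median gene was detected in all cells of each set. In every bin below the 2 highest the 23 lost more genes than the 7. When only cells with the gene above TPM 1 were averaged, the median difference over all genes between the 30 and gene-rich cells was 0.20 in place of -1.22. It was 1.70 in the lowest bin and -0.33 in the highest. Genes of low gene-rich level could pass the filter on mean TPM through high values in a few cells, gene-poor cells among them. The value of 1.70 in the lowest bin is therefore in part built in. It cannot show whether lowly expressed genes in general stood higher in the gene-poor cells where they were seen. The part of depth in these values was not tested.

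**Figure D3:**
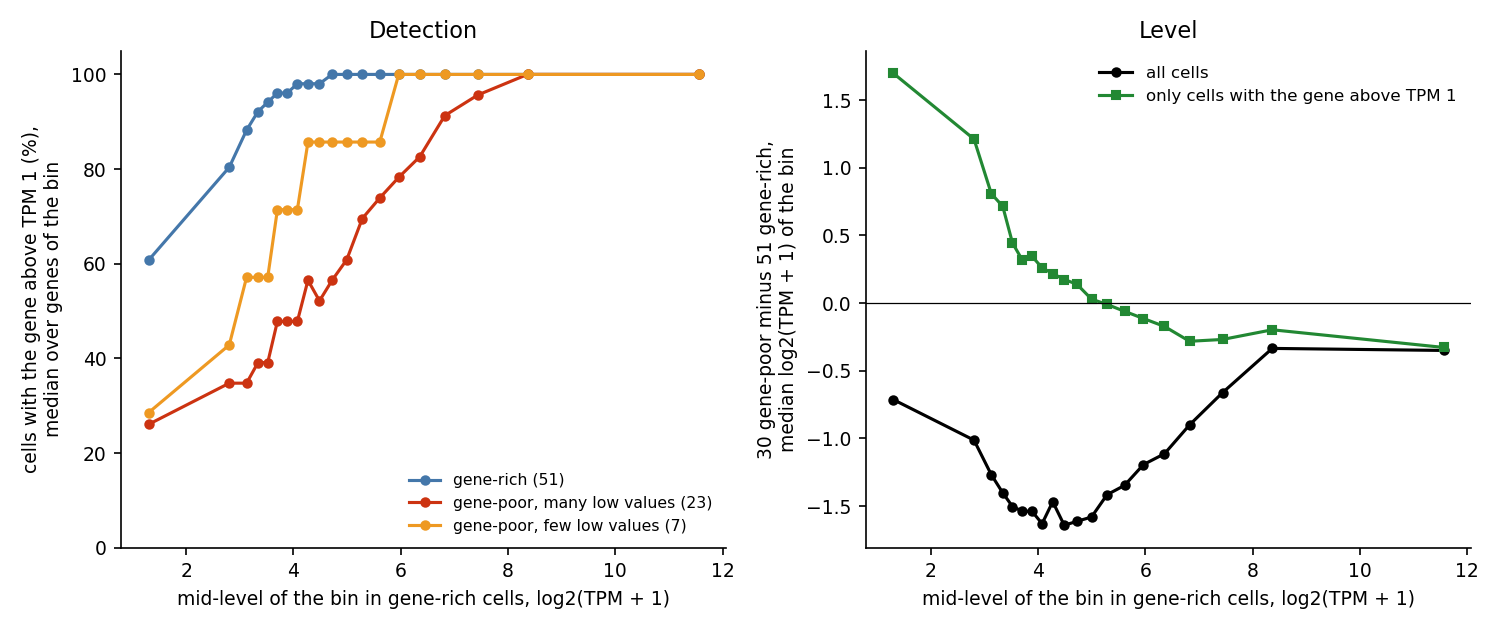
Left, percentage of cells with a gene above TPM 1 (median over the genes of a bin) in gene-rich cells and in both kinds of gene-poor cell; right, median difference of 30 gene-poor minus 51 gene-rich cells over all cells and over cells with the gene above TPM 1; the x axis is the mid-level of each of 20 bins in gene-rich cells, log2(TPM + 1). In the 11th bin the median detection is 100%, 56.5% and 85.7% in gene-rich cells, the 23 and the 7.

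Among the 630 genes that averaged TPM 100 or more and stood above TPM 1 in each of the 81 cells, 338 held, 50 were lower and 24 were higher in the 30 gene-poor cells. In the 7 cells 591 of the 630 held, 1 was lower and 1 was higher. In the 23 cells 253 held, 95 were lower and 61 were higher. The spread between cells also differed. The SD of log2(TPM + 1) over cells had a median over these genes of 0.44 in gene-rich cells, 0.47 in the 7 and 1.32 in the 23. The 5 genes with the smallest difference show a held mean with a wide spread. L1TD1, an RNA-binding protein of embryonic stem cells, was at TPM 176 to 619 (median 330) in gene-rich cells, 188 to 395 (304) in the 7 and 6.71 to 1074 (409) in the 23. PSMA6, an alpha subunit of the proteasome core, was at TPM 462 to 1415 (median 675), 397 to 875 (674) and 7.88 to 3309 (1041) in the same order. MRPS24, KRTCAP2 and ARF5, the other genes of this kind, had lowest values of TPM 2.13, 7.51 and 1.14 in the 23 against 86.1, 165 and 92.6 in gene-rich cells.

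Ribosomal protein genes differed among themselves. Of 85 cytosolic ribosomal protein genes measured, 22 (25.9%) were lower, 23 held and none was higher in the 30 cells, with a median difference of -0.76. Of all genes 60.3% were lower in these cells. In the 23 the counts were 39, 18 and 0 with a median of -0.98, and in the 7 they were 4, 79 and 0 with a median of -0.03. Of all genes 63.9% were lower in the 23 and 29.8% in the 7. Compared with the median of genes in the same bin of level, the list was at -0.50 in the 23 and 0.01 in the 7. RPS12 was at -2.90 in the 23 and 0.03 in the 7, and RPL22L1, a paralogue of RPL22, at -3.31 and -1.26. RPS14, a small subunit protein, had a median of TPM 4561 in gene-rich cells, 4829 in the 7 and 5124 in the 23, and its difference was 0.08 in the 23. RPL35 at 0.13 and RPL36AL at 0.61 were likewise not lower in the 23. RPL21 was at 0.67 in the 23 but at -6.51 in the 7. Unequal levels within one set of transcripts, from RPS12 to RPS14, thus went with the 23 cells. Many of these genes have near-identical processed copies, among which reads of 50 bases may have been shared, so that the values of single members are uncertain.

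Of the most abundant transcripts, RPL5, RPS27, RPLP1, RPL41, RPS3A and RPS18 differed by -0.84, -0.84, -1.11, -0.99, -1.40 and -0.33 in the 23, and by no more than 0.19 either way in the 7. TMSB4X, which encodes the actin-binding peptide thymosin beta 4, held in the 30 cells at a difference of 0.32, with TPM 7197 to 35694 (median 14568) in gene-rich cells, 13076 to 34771 (20783) in the 7 and 7987 to 51126 (18412) in the 23. MIR4461 and MIR6723 are small annotated genes that, with the MTRNR2L genes, lie in nuclear sequence resembling the mitochondrial genome, so that reads of mitochondrial transcripts may be counted there. MIR4461 ran from TPM 6010 to 38070 (median 18222) in gene-rich cells, 14611 to 36267 (18111) in the 7 and 112 to 29076 (10981) in the 23. Of 8 genes of this kind that were measured, 6 held in the 30 cells and none was lower or higher, with a median difference of -0.07. On the log2 scale their summed TPM differed by -0.50 with an SD of 0.97 over gene-poor cells.

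Nuclear genes for complex I of the mitochondrial respiratory chain had the highest median of the lists with at least 5 genes measured. Of 38 complex I subunit genes 3 were lower, 19 held and 3 were higher in the 30 cells, with a median difference of 0.09 against -1.22 over all genes. Differences depended on level, and these genes had a high median log2 level of 8.32. In the bin of 7.81 to 8.92 the median difference of all genes was -0.34. Compared with the median of genes in the same bin of level, complex I genes were at 0.67 in the 23 and -0.06 in the 7. NDUFB2, NDUFB10 and NDUFA13, accessory subunits, were at 1.69, 1.42 and 1.44 in the 23 and at -0.15, -0.21 and -0.33 in the 7. NDUFB2 had a median of TPM 483 in gene-rich cells, 434 in the 7 and 1720 in the 23, with overlapping ranges. NDUFS1, a core subunit of the electron input module, went the other way, at -2.86 in the 23 and -0.38 in the 7. The complex I genes summed to TPM 13050 to 26384 (median 15211) in gene-rich cells, 14368 to 17563 (15313) in the 7 and 20031 to 43204 (28198) in the 23. Of 35 genes of complexes III and IV and the ATP synthase, 3 were lower, 25 held and none was higher, with a median of -0.14.

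Other housekeeping groups are given by their genes lower, holding and higher in the 30 cells, beside 60.3%, 17.9% and 0.679% of all genes. Their median log2 levels were high, at 6.90 to 9.07. Compared with genes in the same bin of level, the 23 had the proteasome, spliceosome and mitochondrial ribosomal proteins at 0.47, 0.45 and 0.44. The secretory pathway, glycolysis and heat shock proteins were at 0.30, 0.24 and 0.08. Translation factors, actin, chaperonin and ferritin lists were at -0.01, -0.08, -0.09 and -0.20. Mitochondrial ribosomal proteins had 28 lower, 26 holding and 0 higher of 77, with a median of -0.64. The proteasome had 14, 21 and 1 of 45 with a median of -0.31, and its one higher gene, PSMD4, a ubiquitin receptor of the regulatory particle, stood at TPM 169 (median) in gene-rich cells, 157 in the 7 and 518 in the 23. The spliceosome had 12, 14 and 1 of 39 with a median of -0.46, and the secretory pathway and translocon 8, 14 and 1 of 32 with a median of -0.42. Sums moved apart from medians here. The summed TPM of proteasome genes had a median of 14624.5 in gene-rich cells and 23794 in the 23, and that of mitochondrial ribosomal proteins 11862 and 19411, although both lists had negative median differences. Translation factors had 19, 21 and 1 of 57 with a median of -0.69, and their one higher gene, EIF3CL, is a near-identical copy of EIF3C, which was at -2.88 in the 23 and -2.42 in the 7, so that the assignment of reads between both is uncertain. EIF4A2, an RNA helicase of the cap-binding complex, was at -3.29 in the 23 and 0.46 in the 7. Glycolysis had 7, 6 and 0 of 17 with a median of -0.63, chaperonin and prefoldin genes 3, 6 and 0 of 14 with a median of -0.52, and heat shock proteins 6, 7 and 1 of 19 with a median of -0.56. Actin, tubulin and thymosin genes had 12, 9 and 0 of 29 with a median of -0.69, and ferritin and antioxidant genes 10, 3 and 1 of 22 with a median of -0.93. The one higher gene of that list was PRDX2, a peroxidase, at TPM 222 to 1597 (median 460) in gene-rich cells, 220 to 694 (429) in the 7 and 428 to 3465 (1972) in the 23.

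**Figure D4:**
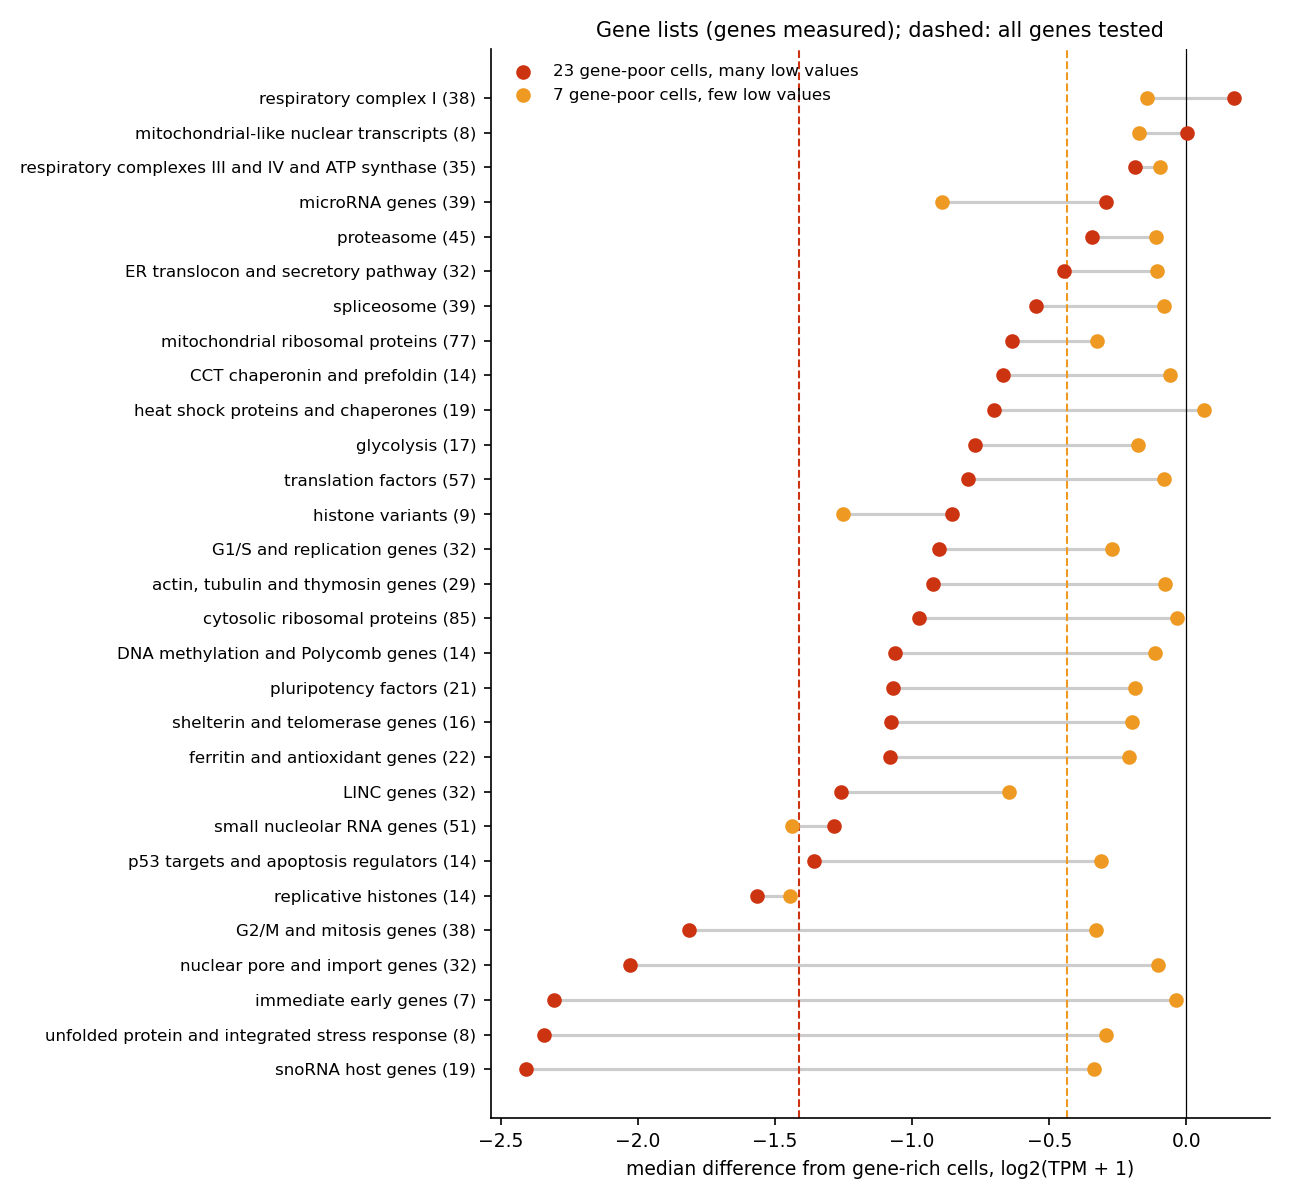
Median difference from gene-rich cells on log2(TPM + 1) (x axis) for each gene list with at least 5 genes measured (number in brackets), in the 23 gene-poor cells with many low values and in the 7 with few; dashed lines are the medians over all 6190 genes, -1.41 and -0.44. snoRNA host genes lie at -2.41 in the 23 and -0.34 in the 7, and complex I at 0.17 and -0.14.

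The lists with the lowest medians in the 30 gene-poor cells were those of stress responses, snoRNA hosts, immediate early genes, nuclear pores and mitosis. Their counts stand beside 60.3% of all 6190 genes lower in these cells. Of 19 snoRNA host genes, whose introns release small nucleolar RNAs many of whose spliced RNAs are kept low by nonsense-mediated decay, 18 were lower and 1 held, with a median of -1.90. The median was -2.41 in the 23 and -0.34 in the 7. SNHG12 was at TPM 0 to 166 (median 80.4) in gene-rich cells, 0 to 105 (40.1) in the 7 and 0 to 57.6 (0) in the 23, and was above TPM 1 in 49 of 51, 4 of 7 and 6 of 23 cells. SNHG7 held at -0.18 in the 23. SNHG19 and SNHG5, other members, were at -4.16 and -4.13 in the 23. Of 15 listed genes of the unfolded protein and integrated stress responses only 8 were measured, with 7 lower, 1 holding and a median of -1.93. ATF4, the transcription factor at the centre of the integrated stress response, was at TPM 175 to 792 (median 453) in gene-rich cells, 278 to 969 (425) in the 7 and 0.44 to 368 (84.5) in the 23. Of 21 listed immediate early genes only 7 were measured, with 6 lower, 1 holding and a median of -1.83. MYC, a growth regulator, was above TPM 1 in 51 of 51 gene-rich cells, 7 of 7 and 9 of 23, and IER3, an immediate early gene, in 51, 7 and 6. FOS held in the 30 cells, at -0.36. Compared with the median of genes in the same bin of level, the 23 cells had immediate early genes at a further -1.21, snoRNA host genes at -1.05 and the stress response genes at -0.67, and the 7 cells had the same lists at 0.70, 0.01 and -0.04. Nuclear pore and mitosis genes were at only -0.33 and -0.44 in the 23 by this measure, and at 0.15 and -0.01 in the 7.

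Genes of the cell cycle were divided into those of G2/M and mitosis and those of G1/S and replication. Of 38 G2/M genes 26 were lower, 9 held and none was higher, with a median of -1.53. The share of lower genes was 68.4%, against 60.3% of all genes. Their summed TPM was not lower, with medians of 5718 in gene-rich cells, 6056 in the 7 and 6478 in the 23. Abundant members such as CCNB1 and CKS1B held, at 0.00 and 0.04 in the 23. Of 32 G1/S genes 15 were lower, 11 held and 1 was higher, with a share of lower genes of 46.9% and a median of -0.69. CDK1, the kinase that drives entry into mitosis, was at TPM 0.18 to 831 (median 281) in gene-rich cells, 153 to 604 (238) in the 7 and 0 to 247 (2.50) in the 23. GINS2, a subunit of the replicative helicase, was the higher one, with a median of TPM 103 in gene-rich cells, 80.5 in the 7 and 411 in the 23. DSCC1 and POLA1, a clamp loader subunit and the catalytic subunit of DNA polymerase alpha, were at -3.68 and -3.43 in the 23. Members of both lists thus stood far apart in these cells. The difference between the lists was not tested. Nuclear pore and import genes had 24 lower, 2 holding and 1 higher of 32, with a median of -1.58 (-2.03 in the 23 and -0.10 in the 7). XPO1, the main export receptor, had medians of TPM 108 in gene-rich cells, 127 in the 7 and 14.4 in the 23, and RANBP1, a regulator of the RAN GTPase, 308, 306 and 808.

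Metallothioneins were low in the 23 gene-poor cells with many low values. MT1H and MT1G were among the 10 lowest differences, and the rest of the family was looked at after that was seen. Metallothioneins are small cysteine-rich proteins that bind zinc and copper, and their promoters carry metal response elements bound by the factor MTF1. MT1G was at TPM 20.1 to 3583 (median 679) in gene-rich cells, 137 to 3469 (1013) in the 7 and 0 to 1396 (1.58) in the 23. It was above TPM 1 in all 51 gene-rich cells, all 7 and 12 of 23. MT1H was above TPM 1 in 45 of 51, 6 of 7 and 2 of 23 cells. MT1E, MT2A, MT1F and MT1X differed by -4.04, -2.85, -2.88 and -1.95 in the 23. In the 7 MT1E and MT2A were at 0.83 and 0.28 and MT1F and MT1X at -2.29 and -1.57. MT1L and MT1M, which have lower levels, were at -1.69 and -1.79 in the 23. All 8 members measured were thus lower in the 23, where 63.9% of all genes were. MT1H and MT1G, for which the family was taken up, are among the 8. In the 7 the members went different ways.

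Promoters of 3 of the 8 metallothionein genes measured were found in the RefSeq promoter table, in build GRCh38.p14, and are shown because these members were low together in the 23. Each is the 150 bases before the annotated start on the plus strand of chromosome 16, at 56608434 to 56608583 for MT2A, 56669664 to 56669813 for MT1H and 56682320 to 56682469 for MT1X. Capitals mark matches to TGCNCNC, a loose form of the core of the metal response element, on either strand.
MT2A: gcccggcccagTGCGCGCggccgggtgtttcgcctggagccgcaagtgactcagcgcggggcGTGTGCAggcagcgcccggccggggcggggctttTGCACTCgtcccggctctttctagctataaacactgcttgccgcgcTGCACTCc
MT1H: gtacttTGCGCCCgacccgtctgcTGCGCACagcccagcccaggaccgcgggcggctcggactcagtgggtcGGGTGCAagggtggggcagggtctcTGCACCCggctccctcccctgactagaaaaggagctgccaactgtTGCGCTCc
MT1X: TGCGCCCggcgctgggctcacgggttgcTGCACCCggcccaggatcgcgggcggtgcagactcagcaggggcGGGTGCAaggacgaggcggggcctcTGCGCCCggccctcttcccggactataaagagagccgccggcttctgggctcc
The windows held 4, 5 and 4 matches. Of 27305 promoter windows of this length in the table, 34.9% held at least 1 match and 0.439% held 4 or more. These shares are for the loose pattern. Metallothionein promoters are known to carry the element, so the contrast with these shares was fixed in advance. A match is a match of letters only, and binding was not measured.

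The remaining genes among the 10 lowest differences were SNORD107, SNORD47, SNORD80, SNORA61, UTP6 and TTC9C beside SNHG12, SNHG19, MT1H and MT1G. Small nucleolar RNA genes are short and lie within introns of hosts, so that a few reads of a host can set their value. SNORD107 was above TPM 1 in 46 of 51 gene-rich cells, 9 of 23 and 0 of 7, and SNORD47 in 44, 7 and 0. All 7 cells are listed at 0 for both, and for SNORD80 and SNORA61, so no fold is given. Of 51 small nucleolar RNA genes measured out of 395 in the table, 33 were lower, 7 held and none was higher, with a median of -1.31 in the 30, -1.29 in the 23 and -1.44 in the 7. Of the 51 genes, 30 were lower in the 23, where 63.9% of all genes were, and 34 were lower in the 7, where 29.8% of all genes were. These counts compare unlike levels, as the list had a median log2 level of only 1.74 in gene-rich cells. Compared with the median of genes in the same bin of level, it was at -0.58 in the 23 and -0.63 in the 7, much the same in both. UTP6, a part of the small subunit processome that matures ribosomal RNA, was at TPM 15.1 to 196 (median 93.7) in gene-rich cells, 0 to 178 (83.6) in the 7 and 0 to 187 (0) in the 23. It was above TPM 1 in 51 of 51, 6 of 7 and 8 of 23. IAH1, TIMM9, GEMIN6 and SLC7A3, a cationic amino acid transporter, were also detected far less often than genes of like level, in 43.3%, 53.3%, 46.7% and 50.0% of gene-poor cells where the medians of their bins were 86.7%, 96.7%, 86.7% and 90.0%. SLC7A3 was above TPM 1 in 51 of 51 gene-rich cells, 7 of 7 and 8 of 23.

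Few genes were higher. Beside MDK and PRDX2, MALAT1, a long non-coding RNA that stays in the nucleus, was at TPM 16.9 to 681 (median 46.9) in gene-rich cells, 31.4 to 115 (58.1) in the 7 and 66.6 to 1010 (417) in the 23. The ranges overlap in 16 gene-rich cells and 2 of the 7. SNAR-B1 and SNAR-B2, small RNA genes with the same value in every cell and thus not separable, were above TPM 1 in 23 of 51 gene-rich cells, 1 of 7 and 22 of 23, with medians of TPM 0, 0 and 127. SNAR-C4 was above TPM 1 in 6 of 51, 0 of 7 and 8 of 23, reaching TPM 3361 in the 23. HIST1H4C, a replication-dependent H4 histone gene, was above TPM 1 in 40 of 51, 4 of 7 and 22 of 23, with medians of TPM 24.0, 81.2 and 308. MIR3652 and EIF3CL, with 9 of 51 gene-rich cells above TPM 1 each, were above it in 11 and 12 of the 23 and in 2 of the 7 each. COMMD9 had medians of TPM 9.41, 12.3 and 57.7 in gene-rich cells, the 7 and the 23. Of these 10 genes, the highest differences, only MDK, MALAT1 and PRDX2 were detected in all 81 cells. ICA1L, AP4S1 and LOC101929415 were also detected more often than the median of their bins. They were above TPM 1 in 90.0%, 80.0% and 93.3% of gene-poor cells, against 36.7%, 26.7% and 43.3%. Genes of low gene-rich level, as these, EIF3CL, SNAR-B1 and SNAR-B2, could pass the mean of TPM 10 through gene-poor cells. Their standing above gene-rich cells is therefore in part built in.

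Defining genes of pluripotent cells were present in both kinds of gene-poor cell. POU5F1 was above TPM 1 in all 81 cells, at TPM 544 to 1840 (median 1325) in gene-rich cells, 687 to 1385 (1171) in the 7 and 180 to 1965 (932) in the 23. SOX2 was above TPM 1 in 51 of 51, 7 of 7 and 20 of 23 cells, and NANOG in 51, 7 and 22. LIN28A, an RNA-binding regulator of let-7 processing, had medians of TPM 247, 240 and 105. Of 21 pluripotency factors measured of 26 listed, 11 (52.4%) were lower, 5 held and none was higher in the 30, where 60.3% of all genes were lower. In the 23 the counts were 12, 2 and 0 with a median of -1.07, and in the 7 they were 4, 12 and 1 with a median of -0.19. Of all genes 63.9% were lower in the 23 and 29.8% in the 7. Compared with the median of genes in the same bin of level, the list was at -0.10 in the 23 and 0.01 in the 7. The lowest were DPPA2 and NODAL, at -3.69 and -3.39 in the 23, and both were above TPM 1 in 3 of the 23. TERF1, a telomere-binding protein of shelterin that is abundant in stem cells, was at 0.72 in the 23 and -0.04 in the 7, with medians of TPM 577 in gene-rich cells, 535 in the 7 and 933 in the 23. Of 16 shelterin and telomerase genes 8 (50.0%) were lower, 6 held and none was higher in the 30, with a median of -0.88. Compared with genes in the same bin of level, that list was at -0.03 in the 23 and -0.01 in the 7. NHP2 and NAF1, which serve telomerase and box H/ACA particles, were at 1.09 and -2.63 in the 23. Of 21 lineage markers 2 passed the mean of TPM 10, and of 10 fibroblast markers 1 did. The 21 lineage markers summed to TPM 18.9 to 161 per gene-rich cell and TPM 2.61 to 167 per gene-poor cell, and the 10 fibroblast markers to TPM 50.9 to 457 and TPM 0.56 to 608. GATA6, HAND1 and LUM were at 0 in all 81 cells. Other markers went both ways. COL1A2, a collagen chain, was above TPM 1 in 44 of 51 gene-rich and 12 of 30 gene-poor cells and reached TPM 37.8 and 153. SOX7 was above it in 8 and 6 cells and reached TPM 48.4 in gene-poor cells, and CDX2 was above it in 0 and 2 cells and reached TPM 22.3. Each of these had its highest value in a gene-poor cell. MIXL1, PAX6 and MEF2C were above TPM 1 in 25, 20 and 10 of 51 gene-rich cells and in 7, 5 and 0 of 30 gene-poor cells. Their highest values were TPM 56.5, 36.8 and 5.95 in gene-rich cells and TPM 18.5, 20.9 and 0.59 in gene-poor cells. The part of such cells or transcripts in the differences was not tested. THY1, the fibroblast marker that passed, was above TPM 1 in 51 of 51 gene-rich and 26 of 30 gene-poor cells and is also expressed by embryonic stem cells.

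**Figure D5:**
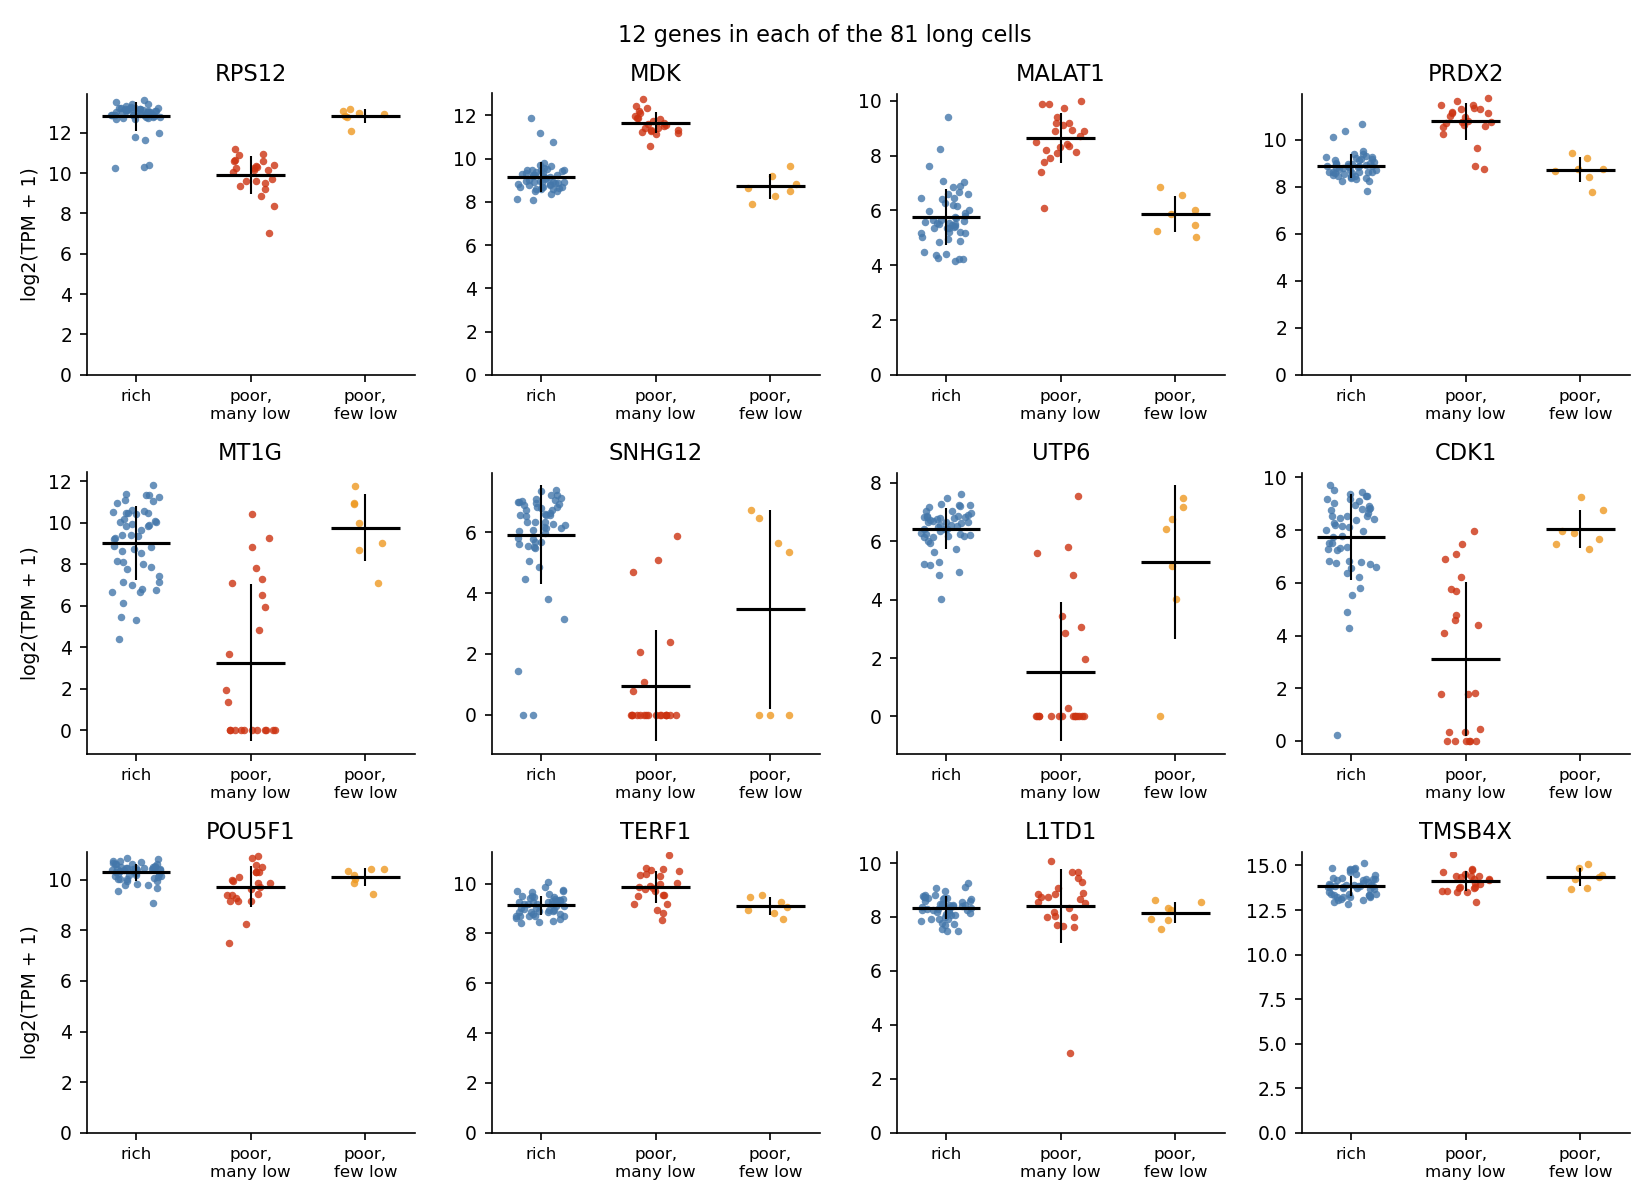
log2(TPM + 1) of 12 genes (y axis) in each of the 81 long cells, grouped as 51 gene-rich cells, 23 gene-poor cells with many low values and 7 with few; each point is a cell, horizontal bars are means and vertical bars are 1 SD. The 7 lie with gene-rich cells for RPS12, MDK, MALAT1, PRDX2, MT1G and CDK1, for which the 23 have medians of TPM 1148, 3113, 417, 1972, 1.58 and 2.50.

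The remaining lists are given in the same way, beside a median of -1.22 over all genes in the 30 cells. Of all genes 60.3% were lower, 17.9% held and 0.679% were higher. DNA methylation and Polycomb genes had 6 lower, 5 holding and 0 higher of 14, with a median of -0.83. Genes of p53 and apoptosis had 8, 3 and 0 of 14 with a median of -1.08, LINC genes 18, 9 and 0 of 32 with a median of -1.03, and microRNA genes 11, 15 and 1 of 39 with a median of -0.64. Replicative histones had 7, 4 and 1 of 14 with a median of -1.32, and histone variants 5, 3 and 1 of 9 with a median of -1.06. H3F3B, which encodes histone H3.3, was at TPM 337 to 1436 (median 593) in gene-rich cells, 322 to 814 (551) in the 7 and 511 to 3894 (1445) in the 23. H3F3A, which encodes the same protein, was above TPM 1 in 49 of 51, 2 of 7 and 21 of 23 cells, so that here, as for RPL21, the 7 were the ones that stood apart. HIST1H4J, a replicative histone gene, was also lower in the 7, at -4.31 against 1.14 in the 23. H3F3A has many near-identical copies in the genome and its value is uncertain. Nuclear long non-coding RNAs had 2 lower, 1 holding and 1 higher (MALAT1) of 4.

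Transcript length moved with the difference, in opposite ways in the 2 kinds of cell. Merged exon length was found for 5734 genes (92.6%). In the 23 the median difference was -1.01 for the shortest of 5 equal classes and -1.58 for the longest, and in the 7 it was -0.62 in the shortest and -0.28 in the longest. The shortest class also had the highest level in gene-rich cells, a log2 median of 5.47 against 4.32 in the longest, and the part of length in the differences was not tested.

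The same border was applied to cells that the long cell split had not used. Of 25 medium cells 14 were gene-rich and 11 gene-poor, of which 2 had few low values. Over the same 6190 genes 3636 (58.7%) were lower, 1241 (20.0%) held and 70 (1.13%) were higher in gene-poor medium cells, with a median of -1.22. Of the 42 genes higher in gene-poor long cells 25 were higher in gene-poor medium cells too, which was 59.5% of the 42 and 35.7% of the 70, and 38 of the 42 lay above 0. Of the 3730 lower genes 77.4% were also lower, against 58.7% of all genes. Across genes, which are not independent replicates, the difference in long cells and that in medium cells had a Pearson correlation of 0.63 and a Spearman correlation of 0.61 (6190 genes). Both splits cut on the number of detected genes, and the difference in long cells depended on level. The likeness of both splits is therefore in part built in, and how large that part is was not tested. RPS12 had a median of TPM 7996 in gene-rich and 1438 in gene-poor medium cells, MDK 467 and 3555, MALAT1 61.4 and 249, and MT1G 1477 and 0. These genes thus differed the same way in medium cells as in the 23 long cells. Only 3 of 15 short cells were gene-rich. Their ribosomal protein sums were TPM 233384 to 266010, and those of the 12 gene-poor short cells TPM 79388 to 400089. With 3 cells on one side, differences in short cells are not described further.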

How the data were processed

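Gene expression was measured in 121 single cells, and the 81 titled Long were used here, with the Medium and Short cells for comparison. Reads were 50-base single-end reads aligned to hg19 with TopHat2, and RSEM is named in the labels. The study's methods describe counting with HTSeq and scaling by size factors. The deposited values are TPM with 2 decimals, normalised by the authors. Of the table, 25610 complete gene rows were read; the last row was truncated and not used.

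Log2 differences used log2(TPM + 1) and the 6190 genes averaging TPM 10 or more over the 81 cells. Summed list levels used TPM. Gene names followed a rule: the 10 lowest and 10 highest differences, the 10 most abundant genes, the 5 smallest differences among always detected genes, genes detected far below or above their bin, and the 2 lowest, 2 highest and defining members of 32 gene lists. RPS14, RPL21, NDUFA13, SNHG5, XPO1, CCNB1, CKS1B, HIST1H4J, the metallothioneins and the sets of 23 and 7 cells were chosen after the values were seen, and all members and lists were chosen with earlier results of these data known. Y-linked genes and XIST were not named. The calculation was tested on simulated log2 values with planted shifts, drawn only for abundant genes. The simulation did not model undetected transcripts, so it does not cover genes with many zeros. No 2 of the 121 columns were identical. Python 3.11.15, numpy 2.4.6, pandas 2.3.3 and matplotlib 3.10.9 were used. Exon lengths came from GENCODE on GRCh37.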

Additional observations from a re-analysis of the deposited data

How the results depend on the processing

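No paired analysis was possible because the cell numbers shared between telomere groups tie no cells together and no test was made. Lower genes numbered 3730 as reported, 636 with a pseudocount of 10, 1114 at a log2 difference of 2, and 5767 both with a mean TPM of at least 1 and with no filter. Higher genes numbered 42 as reported, 6 at a log2 difference of 2, 153 with medians over cells, 22 with TPM rescaled without ribosomal protein genes, and 140 without the 7 gene-poor cells that had few low values. Holding genes numbered 1110 as reported, 3192 with a pseudocount of 10, 1753 with medians over cells, 3682 with a mean TPM of at least 1 and 10984 with no filter, where most genes are near 0 in both groups. The median percentage of gene-poor cells with a gene detected was 66.7% above TPM 1, 80.0% above TPM 0 and 50.0% above TPM 10. Of 32 lists, 22 had a median above that of all genes as reported and 11 with no filter. The median difference over all genes was -1.22 as reported, -0.43 with a pseudocount of 10, -2.03 with a pseudocount of 0.1, -0.89 with a mean TPM of at least 1, -0.36 with no filter, -1.44 after rescaling without ribosomal protein genes and -1.14 after scaling by median ratios. Leaving out the 7 cells and leaving out Long_7, Long_70 and Long_74 were added after the data were seen; without those 3 gene-rich cells 3698 genes were lower and 56 higher. No difference of a named gene called lower or higher changed sign under any of these settings. Cells of 1 line without named cultures are no replicates of a condition, and depth per cell cannot be read from TPM.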

Other observations

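Of the 13 long cells numbered 1 to 13, 10 belonged to the 23 gene-poor cells with many low values, as against 13 of the 68 numbered 14 to 81. None of the 7 gene-poor cells with few low values was numbered below 14. The labels do not say what the numbers stand for and name no plate, day or batch. Long_7, one of the 3 gene-rich cells with RPS12 and MDK in the range of the 23, was among the first 13 too. This was seen after the values, and its part in the differences was not tested.

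Long_37 stood between the 2 kinds of gene-poor cell in its low values, with 143 genes between TPM 0 and 1 where the other 22 of its kind had 1730 or more. Its RPS12 was at TPM 1225, its MDK at TPM 3764 and its ribosomal protein sum at TPM 211419, the highest of the 23. MT1G was at TPM 1396 in Long_37, also the highest of the 23.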
